A study of Mus musculus with 6 samples.

Results

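The intestinal identity transcription factors examined here were 8 genes, Cdx1, Cdx2, Hnf4a, Hnf4g, Gata4, Gata6, Onecut2 and Pdx1, chosen by name from 38561 genes counted in mouse small intestinal mucosa. All 8 were found in the tables and all 8 passed the expression filter, which 16425 genes passed. Each was compared between 3 pools labelled Rbm47-IKO and 3 control pools. RNA-Seq was performed on scraped mucosa of C57BL/6J mice aged 8 to 12 weeks per the labels, and each pool held RNA of 3 mice of both sexes, where the methods of the study give a wider age range and allow for more mice in a pool. The Rbm47-IKO mice carried the constitutive Vil1-Cre transgene, in which the villin promoter drives Cre in intestinal epithelium, from small intestine to colon; some cells of urinary and genital organs express it too. The design removes Rbm47, which encodes an RNA-binding protein, from those cells, and other mucosal cells keep the gene. The labels name the controls as wild type, whereas the methods of the study name Rbm47 fl/fl mice as its controls. The labels name the tissue as small intestinal mucosa and the study names it as jejunal mucosa, and how far along the intestine each pool was taken is not given in the sources used here.

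These factors bind DNA and take part in the identity of intestinal epithelium. CDX homeobox proteins are found along the whole intestine, and HNF4 nuclear receptors work beside them in villus enterocytes, where they drive brush border and lipid genes. GATA6 is present along the small intestine, GATA4 is present in duodenum and jejunum and is lost towards the ileum, and ONECUT2 and PDX1 mark its proximal end, PDX1 being also a factor of the pancreas and the distal stomach.

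Rbm47 (ENSMUSG00000070780) did not have a lower level in the pools labelled Rbm47-IKO. Normalized CPM, the counts scaled to a TMM library size, stood at 602.7, 624.6 and 619.8 for Rbm47 in these pools against 459.8, 449.9 and 472.1 in controls, giving a log2 fold change of 0.42 (standard error, SE, 0.10, adjusted p = 0.0751 in edgeR). The adjusted p for Rbm47 was 0.000983 with DESeq2 and 0.0473 when edgeR scaled by library size alone, again in the higher direction. A level that was not lower goes against the label, and the samples are called the pools labelled Rbm47-IKO throughout. Which exon was removed is not given in the sources used here, so that reads from the rest of the gene could not be set apart. Total counts were 31560320 to 38951830 per pool, and 443 genes differed at an adjusted p of 0.05 or less in edgeR, of which 238 were higher and 205 lower in the pools labelled Rbm47-IKO. Epithelial marker genes were high in all 6 pools, with a summed normalized CPM of 14794 to 18096 in the pools labelled Rbm47-IKO and 16063 to 17065 in control pools. Pool 3 of the genotype labelled Rbm47-IKO and control pool 2 stood apart by their smooth muscle genes, whose summed normalized CPM was 3611 and 3051 against 107.8 to 645.9 in the other 4 pools. The fibroblast sum was also highest in those pools, at 360.0 and 418.9 against 85.0 to 232.0 elsewhere. Fewer cells of a type and less RNA per cell cannot be told apart in such samples. The p-values measure the spread between pools.

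In edgeR with TMM scaling and no covariate, no factor passed the adjusted threshold over all 6 pools. Of the 8, 0 were called by the edgeR quasi-likelihood test, against 2.7% of all genes tested, while 5 had an unadjusted edgeR p under 0.05, as did 16.8% of all genes in either direction, and limma-voom called 0 and DESeq2 called 1. All 5 of those, Cdx2, Hnf4a, Gata4, Gata6 and Pdx1, were higher in the pools labelled Rbm47-IKO, where Rbm47 was not lower, and 8.57% of all genes tested had such a p in that direction. In 4 of the 8, Cdx2, Gata4, Gata6 and Pdx1, every pool labelled Rbm47-IKO was above every control pool, as was the case for 11.7% of all genes tested. In 0 of the 8 was every pool below every control pool, against 11.6% of all genes. The DESeq2 call was Cdx2, beside 9.03% of the genes for which that tool gave an adjusted p. The fold change was above 0 on the log2 scale in 6 of the 8, against 49.3% of genes, and its median was 0.34 over the 8 and -0.0059 over all genes tested. Pdx1 passed the expression filter only through the pools where it was high; the other 7 factors had 5 above 0, a median of 0.26, 3 without overlap and 4 with an unadjusted edgeR p under 0.05. The count of 5 depended on single pools, and was 2, Cdx2 and Pdx1, without pool 2 labelled Rbm47-IKO, where 10.2% of all genes had such a p, and 3 without pool 1 of that genotype, where 11.9% did. Without control pool 1 it was also 3, of which Onecut2 was lower, beside 15.9% of all genes, and without control pool 2 it was 4, of which Hnf4g was lower, beside 21.9%. Without the pair of pools highest in smooth muscle genes, 5 factors, with Hnf4a added, did not overlap in the higher direction and Hnf4g did not in the lower, against 27.8% and 27.5% of genes with those 4 pools.

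**Figure D1:**
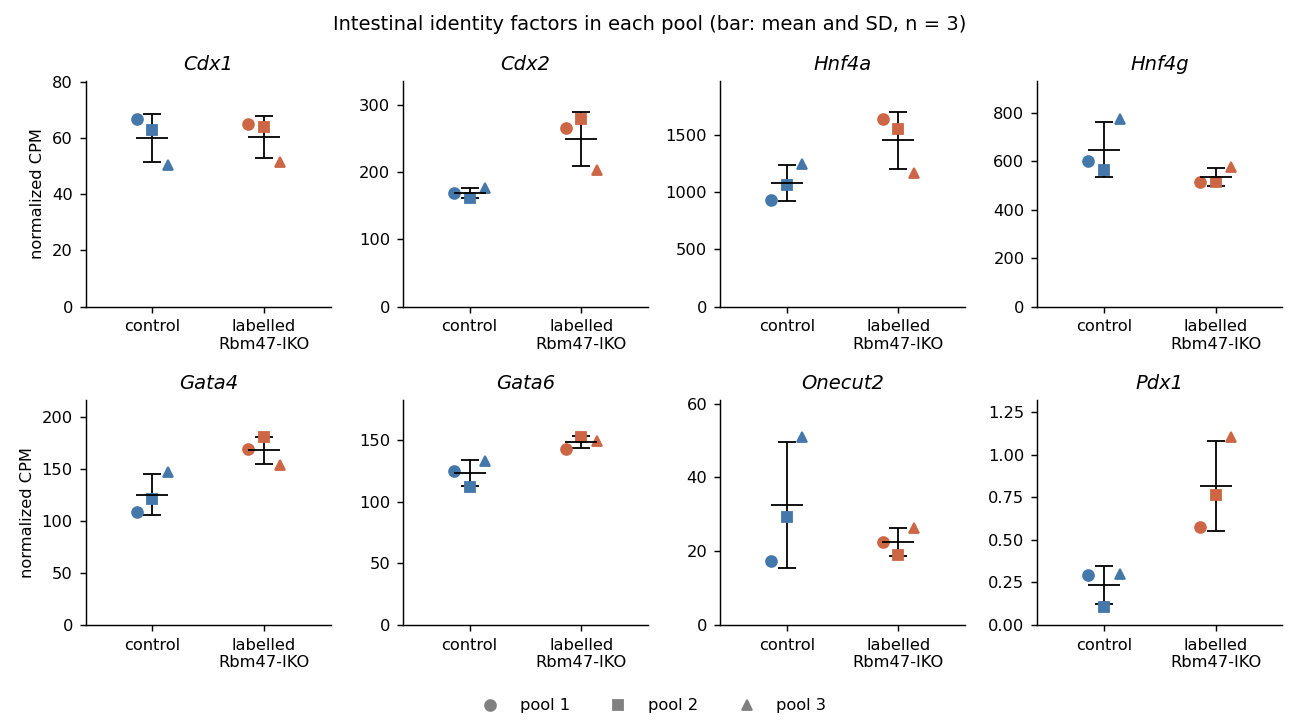
Normalized CPM (vertical axes, each starting at 0) of the 8 factors in each pool, with the horizontal bar at the mean and the error bar at 1 SD of 3 pools; circles, squares and triangles are pools 1, 2 and 3. Cdx2, Gata4, Gata6 and Pdx1 did not overlap between the groups, while Cdx1 took nearly the same values in both and Onecut2 spread from 17.2 to 50.9 in control pools.

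Compared per length in the RPKM values of the authors, the factors covered a wide range. In control pools Hnf4a had 223.1 ± 24.7 RPKM (SD, n = 3), above Hnf4g with 148.3 ± 19.9 and Cdx2 with 74.8 ± 2.12, each separate from its neighbours. Gata6 (38.7 ± 2.45), Cdx1 (34.6 ± 6.26) and Gata4 (32.0 ± 3.73) followed with overlapping pools and could not be ordered beyond their spread. Onecut2 had 2.40 ± 1.17 RPKM and Pdx1 0.0540 ± 0.0252, so that these factors of the proximal end were scarce. Gata4, the factor of duodenum and jejunum, was not, and overlapped the gut-wide Gata6 and Cdx1. In the pools labelled Rbm47-IKO the order of the means differed only in that Gata4 stood above Cdx1. Hnf4g (122.7 ± 12.4 RPKM) overlapped Cdx2 (109.7 ± 14.4 RPKM) there, and Gata6 (46.3 ± 2.13) and Gata4 (42.8 ± 2.10) overlapped each other but stood apart from Cdx1 (34.3 ± 3.27). Hnf4a led there too, with 298.6 ± 43.8 RPKM, and Onecut2 (1.69 ± 0.336 RPKM) and Pdx1 (0.189 ± 0.0679 RPKM) were again last.

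**Figure D2:**
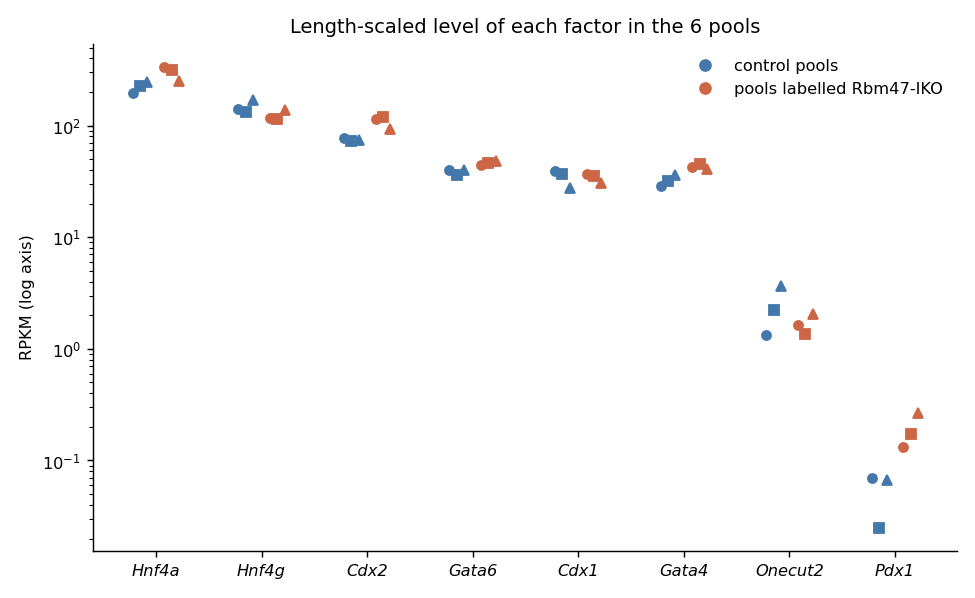
RPKM of the authors (log axis) of each factor in the 6 pools, in order of the mean over control pools, with control pools in blue and pools labelled Rbm47-IKO in orange; circles, squares and triangles are pools 1, 2 and 3. Hnf4a was highest in both groups and Pdx1 lowest, with pools from 0.0249 to 0.264.

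Cdx2 and Pdx1 are neighbours. In the tables Cdx2 (ENSMUSG00000029646) lies on the minus strand of chromosome 5 from 147300805 to 147307270, and Pdx1 (ENSMUSG00000029644) on the plus strand from 147269959 to 147278008, 22.8 kb away. RefSeq promoter windows on GRCm38.p6, from 250 bases before a start to 50 bases after it, were matched by symbol for 3 of the 8 factors. The windows of Cdx2 and Pdx1 are shown because both genes were higher in every pool labelled Rbm47-IKO, and those of Hnf4a because it is the most abundant factor and has 2 starts that the gene counts add together. Capitals mark matches, on either strand, to 6 short motifs. For zinc finger factors of the GATA family the letters searched were GATAA, for CDX proteins they were TTTATG, for HNF4 receptors they were CAAAG, for part of the HNF1 site they were GTTAAT, for ONECUT proteins they were ATTGAT, and for the TATA box they were TATAAA. A match on the opposite strand is printed as its reverse complement, and no match overlapped another in these windows.
Cdx2, chr5:147307200-147307499, minus strand: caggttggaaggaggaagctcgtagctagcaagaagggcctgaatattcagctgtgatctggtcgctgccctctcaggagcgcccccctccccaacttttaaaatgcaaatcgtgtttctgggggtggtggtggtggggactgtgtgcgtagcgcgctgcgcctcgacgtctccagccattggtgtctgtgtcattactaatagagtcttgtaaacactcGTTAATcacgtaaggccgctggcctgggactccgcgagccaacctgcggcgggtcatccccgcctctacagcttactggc
Pdx1, chr5:147269847-147270146, plus strand: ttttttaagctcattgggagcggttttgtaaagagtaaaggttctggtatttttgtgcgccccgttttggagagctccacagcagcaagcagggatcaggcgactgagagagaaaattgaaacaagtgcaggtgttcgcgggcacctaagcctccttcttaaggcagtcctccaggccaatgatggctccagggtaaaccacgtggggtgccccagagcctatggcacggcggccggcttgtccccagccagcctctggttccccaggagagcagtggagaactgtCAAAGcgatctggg
Hnf4a upstream start, chr2:163506607-163506906, plus strand: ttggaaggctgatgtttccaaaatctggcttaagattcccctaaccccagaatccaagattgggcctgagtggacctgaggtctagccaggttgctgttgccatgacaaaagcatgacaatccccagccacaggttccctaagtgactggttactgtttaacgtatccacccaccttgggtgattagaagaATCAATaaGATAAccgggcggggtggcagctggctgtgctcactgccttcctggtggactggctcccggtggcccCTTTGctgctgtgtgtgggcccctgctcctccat
Hnf4a downstream start, chr2:163546905-163547204, plus strand: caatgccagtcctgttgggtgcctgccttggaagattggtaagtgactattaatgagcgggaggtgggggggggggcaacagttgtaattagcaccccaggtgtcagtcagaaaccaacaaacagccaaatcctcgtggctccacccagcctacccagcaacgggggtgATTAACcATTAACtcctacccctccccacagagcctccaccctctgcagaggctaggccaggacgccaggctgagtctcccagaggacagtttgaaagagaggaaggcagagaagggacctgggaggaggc

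The matches were few. The Cdx2 window held 1 match, GTTAAT, beginning at -30 relative to the start, and 7.1% of 32817 RefSeq windows of this length held that motif. The Pdx1 window held CAAAG at 36, a motif present in 54.0% of windows. The upstream Hnf4a window held ATTGAT on the minus strand at -59 (7.5% of windows), GATAA at -51 (25.4%) and CAAAG on the minus strand at 16, and the downstream window held GTTAAT on the minus strand at -81 and -74. The letters TTTATG (11.9% of windows) and TATAAA (13.6%) were in none of the 4 windows. These matches describe the sequence and were not tested for binding.

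Cdx2, the homeobox factor that specifies intestinal epithelium, was higher in every pool labelled Rbm47-IKO, although Rbm47 was not lower there. It reached a normalized CPM of 265.6, 279.6 and 203.8 there and 169.2, 161.5 and 176.1 in control pools. The lowest of the first group lay above the highest control pool, and the control pools differed little, with a coefficient of variation of 4.33% against 16.2%. The log2 fold change was 0.56 (SE 0.14, 95% interval 0.24 to 0.89), a fold of 1.48, with an adjusted p of 0.0835 in edgeR over all genes tested. The adjusted p was 0.00696 with DESeq2, 0.0478 when edgeR scaled by library size alone and 0.0407 with smooth muscle genes as a covariate, and it was 0.239 with an offset for GC content, where the log2 fold change was 0.44. With each pool left out the log2 fold change ran from 0.47 to 0.69 and the adjusted p in edgeR from 0.0622 to 0.364.

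Cdx1, the paralog of Cdx2 (ENSMUSG00000024619, chromosome 18, 61018862 to 61036199), overlapped between the groups. Its normalized CPM was 65.3, 64.1 and 51.7 in the pools labelled Rbm47-IKO and 67.0, 63.0 and 50.4 in control pools, so that pool 3 was lowest in both groups. Its log2 fold change was 0.01 (SE 0.15, 95% interval -0.33 to 0.34, adjusted p = 0.993 in edgeR), and its sign depended on the scaling. The ratio of Cdx2 to Cdx1 within a pool does not depend on scaling between pools. On the log2 scale of RPKM it was 1.66, 1.76 and 1.61 in the pools labelled Rbm47-IKO and 0.97, 0.99 and 1.44 in control pools, without overlap. The groups differed by 0.54 (two-sided exact permutation test over 3 against 3 pools, p = 0.1, the smallest that this design allows, or 0.133 adjusted over the 4 ratios computed).

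Pdx1 was close to the lower limit of the assay. Its counts were 20, 29 and 36 in the pools labelled Rbm47-IKO and 10, 4 and 11 in control pools. The smallest level taken as detected, 3 counts, corresponded to 0.0791 to 0.0919 CPM over the 6 pools. The normalized CPM was 0.578, 0.766 and 1.10 against 0.294, 0.105 and 0.302, higher in 3 of 3 pools. The log2 fold change of 1.79 (SE 0.49, 95% interval 0.65 to 2.94, adjusted p = 0.110 in edgeR) was the highest of the 8 factors and had the widest interval. The ratio of Pdx1 to Cdx2 on the log2 scale of RPKM was -9.78, -9.45 and -8.46 in the pools labelled Rbm47-IKO and -10.1, -11.5 and -10.1 in control pools (difference 1.35). It is given as a description, since Pdx1 passed the filter through its high pools. Without control pool 2 the difference was 0.88, the lowest with each pool left out, and the highest was 1.62.

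Pool 3 labelled Rbm47-IKO, the highest in Pdx1, also had the highest summed counts of pancreatic enzymes, while Clps and Gcg, the most abundant genes of the pancreas list, were lowest there. The counts of 10 digestive enzyme genes summed to 770 in that pool against 25 and 27 in the other pools of its genotype and 42, 13 and 18 in control pools. Among them were Ctrb1, a chymotrypsinogen, with 223 counts against at most 5 elsewhere, and Cpa1, a carboxypeptidase, with 115 against at most 3. Ins2, an insulin gene of the pancreatic islet, had 11 counts there and 0 in every other pool, while the pancreatic factors Ptf1a and Nkx6-1 had 0 counts in all 6. Clps, the cofactor of pancreatic lipase, had 256 counts there against 370 and 542 in the other pools of its genotype and 449, 658 and 342 in control pools (log2 fold change -0.28, adjusted p = 0.718 in edgeR). Gcg, the glucagon gene, which enteroendocrine cells also express, had 101 counts against 151 and 149 and against 258, 223 and 165 (log2 fold change -0.66, adjusted p = 0.244 in edgeR). Of the 16 pancreas genes listed, 3 passed the filter and edgeR, limma-voom and DESeq2 called 0, with 1 at an unadjusted edgeR p under 0.05, beside 2.7% of all genes called by edgeR, 9.03% by DESeq2 and 16.8% at such an unadjusted p. Without that pool the Pdx1 log2 fold change was 1.52 (adjusted p = 0.261 in edgeR), and without it and control pool 2 it was 1.16 (adjusted p = 0.210 in edgeR). Of 14 stomach genes listed, 9 had 3 counts or fewer in all 6 pools and only Muc6, a mucin of gastric glands, was tested, with a log2 fold change of 0.20 (adjusted p = 0.872 in edgeR). Gkn1, a gastrokine of the stomach lining, did not pass the filter and was chosen after its values were seen. It had 6 counts in each pool labelled Rbm47-IKO and 0 in each control pool. In the same list Gkn3 had 2, 0 and 0 counts against 0, 8 and 3 in control pools. Atp4a had 10, 3 and 3 against 9, 15 and 8, and both were also chosen after their values were seen.

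The locus of both genes held one other gene with the same pattern. Plut, a noncoding gene antisense to Pdx1 that shares no exonic base with it, had 186, 219 and 219 counts in the pools labelled Rbm47-IKO and 115, 134 and 126 in control pools. In normalized CPM these were 5.37, 5.78 and 6.71 against 3.38, 3.53 and 3.46, without overlap, and the log2 fold change was 0.78 (SE 0.19, adjusted p = 0.0740 in edgeR). Plut and Pdx1 were thus both higher in each pool labelled Rbm47-IKO, whose Rbm47 level was not lower. Strand use in the counting is not given, and reads of the antisense pair cannot then be told apart where their spans overlap. Of 9 genes within 100 kb of Pdx1 and Cdx2, 5 were tested. Beside Pdx1, Cdx2 and Plut these were Urad and Flt3, named for their position. Urad had a log2 fold change of 0.39 (adjusted p = 0.663 in edgeR) and Flt3 one of -0.11 (adjusted p = 0.921 in edgeR), and both overlapped between groups. Gsx1, the third homeobox gene of this cluster, had at most 1 count in any pool.

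The HNF4 paralogs differed in sign. Hnf4a (ENSMUSG00000017950, chromosome 2, 163506808 to 163572910, plus strand), which activates enterocyte lipid and brush border genes, had a normalized CPM of 1640, 1547 and 1166 in the pools labelled Rbm47-IKO and 926.0, 1062 and 1246 in control pools. Pool 3 labelled Rbm47-IKO lay inside the control range, and the other pools of that genotype were above it. This amounted to a log2 fold change of 0.43 (SE 0.18, 95% interval 0.02 to 0.84, adjusted p = 0.276 in edgeR). Hnf4g (ENSMUSG00000017688, chromosome 3, 3508030 to 3659775, plus strand), its paralog enriched in the intestine, had 513.3, 515.1 and 576.6 against 600.0, 564.6 and 776.0, with overlap at pool 3 labelled Rbm47-IKO and control pool 2. Its log2 fold change was -0.27 (SE 0.15, 95% interval -0.62 to 0.07, adjusted p = 0.421 in edgeR), and without control pool 3 it was -0.12.

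The ratio of Hnf4a to Hnf4g was higher in each pool labelled Rbm47-IKO, where Rbm47 itself was not lower. On the log2 scale of RPKM it was 1.53, 1.44 and 0.87 there and 0.48, 0.76 and 0.53 in control pools. The lowest of the first group and the highest of the second lay close together, and the difference of 0.69 had the smallest p the design allows (two-sided exact permutation test over 3 against 3 pools, p = 0.1, 0.133 adjusted over the 4 ratios). With each pool left out the difference ran from 0.56 to 0.89. The ratio was not computed with an offset for GC content. In the edgeR fit with that offset the log2 fold change was 0.36 for Hnf4a and -0.12 for Hnf4g. Their longest transcripts had a GC content of 53.7% and 41.5%. Hnf4aos, antisense to Hnf4a with no shared exonic base, had a log2 fold change of 0.04 (adjusted p = 0.958 in edgeR), and the small RNA genes Gm25881 within Hnf4a and Gm23237 within Hnf4g had at most 30 counts in any pool.

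Both GATA factors were higher in every pool labelled Rbm47-IKO without passing the adjusted threshold. Gata4 (ENSMUSG00000021944, chromosome 14, 63198922 to 63271692, minus strand), the zinc finger factor of duodenum and jejunum, had a normalized CPM of 169.0, 180.7 and 154.1 against 108.3, 120.7 and 146.9. The lowest pool labelled Rbm47-IKO was just above control pool 3. Its log2 fold change was 0.42 (SE 0.14, 95% interval 0.10 to 0.74, adjusted p = 0.170 in edgeR). Gata6 (ENSMUSG00000005836, chromosome 18, 11052510 to 11085635, plus strand), the GATA factor of the whole small intestine, had 143.0, 152.5 and 149.2 against 124.9, 112.2 and 133.2. Its pools were the most even of the 8 in the group labelled Rbm47-IKO, with a coefficient of variation of 3.24%. It gave a log2 fold change of 0.26 (SE 0.10, 95% interval 0.02 to 0.51, adjusted p = 0.256 in edgeR). The noncoding gene 1010001N08Rik overlaps Gata6 on the opposite strand by 58 exonic bases and had a log2 fold change of -0.10 (adjusted p = 0.925 in edgeR).

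The ratio of the proximal factor Gata4 to the gut-wide factor Gata6 overlapped between the groups. On the log2 scale of RPKM it was -0.05, -0.05 and -0.24 in the pools labelled Rbm47-IKO and -0.50, -0.18 and -0.15 in control pools. The difference was 0.16 (two-sided exact permutation test, p = 0.3), and it ran from 0.05 to 0.23 with each pool left out. Gata5, the third GATA gene of the gut, had a normalized CPM of 149.0, 145.7 and 132.2 against 113.1, 106.7 and 96.6, without overlap. Its log2 fold change was 0.43 (SE 0.11, adjusted p = 0.0844 in edgeR); it was chosen for mention after its values were seen.

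Onecut2 (ENSMUSG00000045991, chromosome 18, 64340364 to 64398486, plus strand), a cut-homeodomain factor of the duodenum, varied mostly among control pools. Its normalized CPM was 22.4, 18.9 and 26.4 in the pools labelled Rbm47-IKO and 17.2, 29.3 and 50.9 in control pools, so that the first group lay within the range of the second. The coefficient of variation was 52.5% in control pools against 16.7%. The log2 fold change of -0.53 (SE 0.35, 95% interval -1.35 to 0.29, adjusted p = 0.530 in edgeR) rested on control pool 3, without which it was -0.04 (adjusted p = 0.984 in edgeR).

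**Figure D3:**
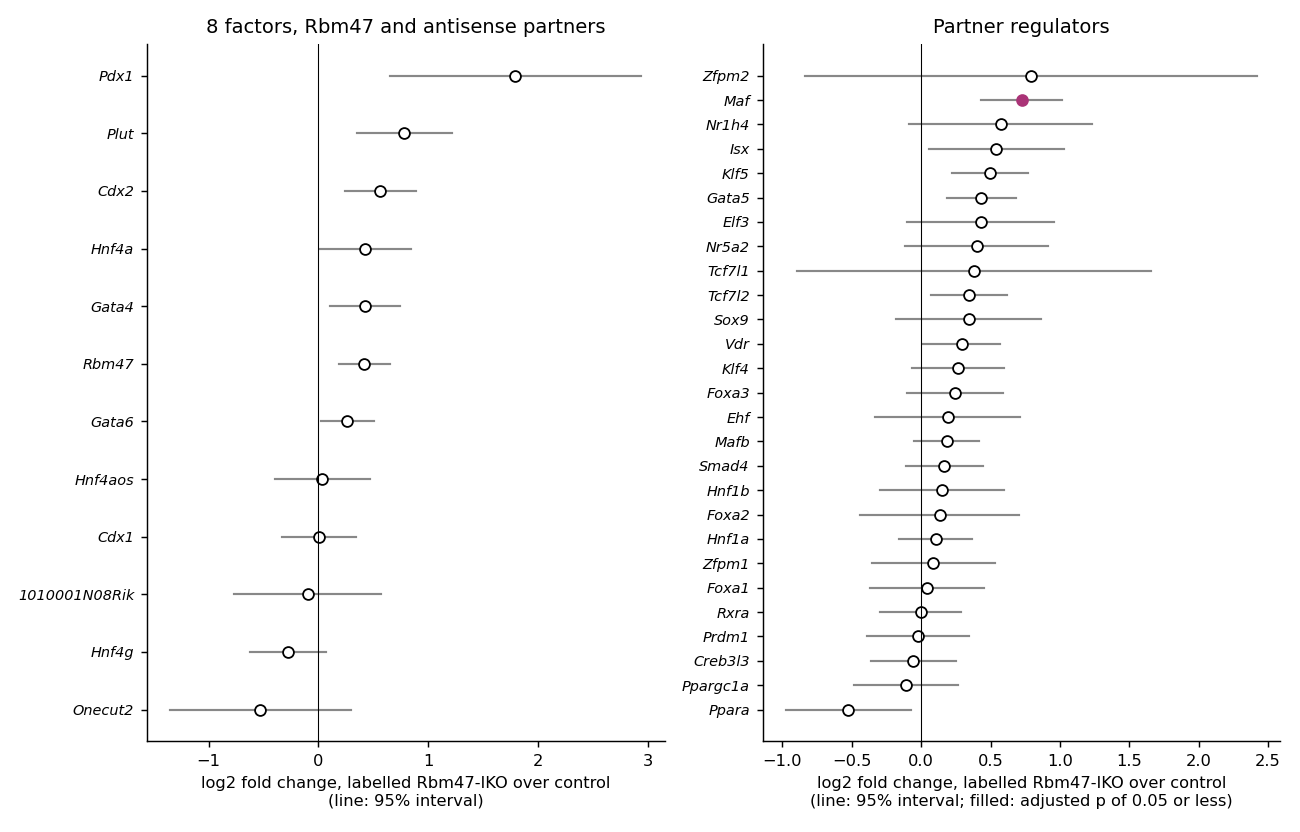
Log2 fold change of the pools labelled Rbm47-IKO over control pools (points, with 95% intervals) for the 8 factors, Rbm47 and the antisense or overlapping genes of the factors at the left, and for partner regulators at the right; filled points passed an adjusted p of 0.05 in edgeR. Among the factors the intervals of Cdx2, Hnf4a, Gata4, Gata6 and Pdx1 lie above 0, and Maf is the filled point.

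Proximal and distal genes of the small intestine varied between control pools and some of them did so alongside Onecut2. Control pool 3, the highest of the 6 in Onecut2 and the highest control pool in Gata4, was also highest in Slc46a1, the proximal folate transporter, whose normalized CPM was 36.9, 38.2 and 44.8 in the pools labelled Rbm47-IKO and 65.7, 102.9 and 212.1 in control pools. The same held for Tmprss15, the duodenal enteropeptidase, with 0.578, 0.845 and 1.47 against 1.32, 1.66 and 6.17. Control pool 1, the lowest in Onecut2 and Gata4, had the highest control value of the ileal genes Fabp6, Plb1 and Slc10a2. Fabp6, the ileal bile acid binding protein, had 31.7, 39.8 and 18.6 against 17.2, 3.98 and 2.55, and Slc10a2, the ileal bile acid transporter, had 17.2, 7.84 and 14.6 against 44.3, 3.40 and 7.05. Other genes of those lists did not keep this order. Apoa4 and Gip, both proximal, were highest among control pools in pool 2 (8088 and 45.2 normalized CPM), Bco1, also proximal, was at 47.0, 16.8 and 52.1 in control pools, and so higher in pool 1 than in pool 2, and the distal gene Ces2e was highest among control pools in pool 3 (1302). The control pools thus differed among themselves in regional genes, and the part of the sampled position in the values of the regional factors was not tested. These genes were chosen for mention after their values were seen.

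**Figure D4:**
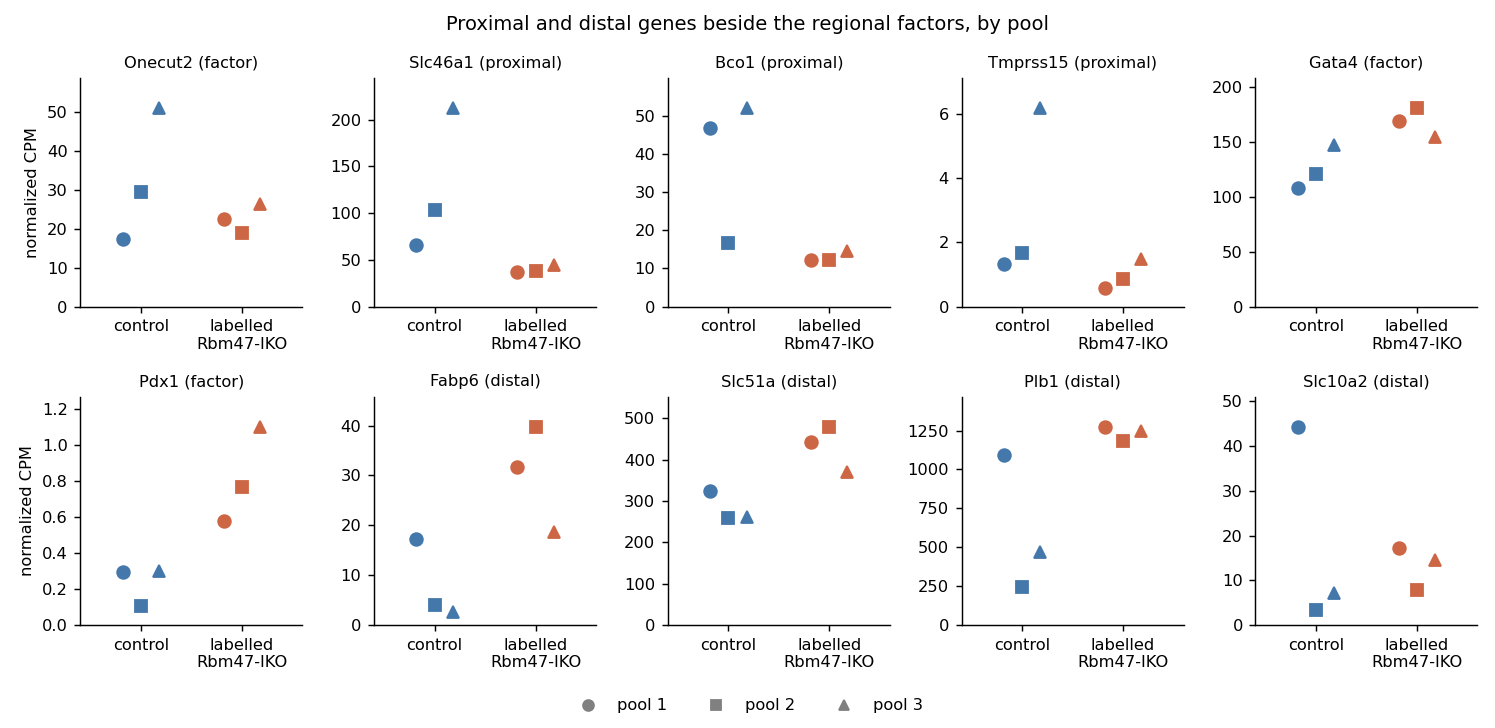
Normalized CPM (vertical axes, each starting at 0) in each pool of Onecut2, Gata4 and Pdx1 beside proximal genes and distal genes; circles, squares and triangles are pools 1, 2 and 3 of the groups named under each axis. Control pool 3 is highest in Onecut2, Slc46a1 and Tmprss15, and control pool 1 is the highest control pool in Fabp6, Plb1 and Slc10a2.

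Of the proximal and distal lists, the same edgeR test called no gene. Of 19 proximal genes, all tested, edgeR called 0 and limma-voom 0, while DESeq2 called 5 and 9 had an unadjusted edgeR p under 0.05, 3 of them higher and 6 lower, beside the 16.8% of all genes with such a p and the 9.03% called by DESeq2. The most abundant were Apoa4, an apolipoprotein of chylomicrons, with a log2 fold change of -1.01 (adjusted p = 0.0802 in edgeR), and Lct, lactase, with 0.19 (adjusted p = 0.649 in edgeR), and the median of the list was -0.15. Of 14 distal genes tested, edgeR and limma-voom called 0 and DESeq2 4, the last beside 9.03% of all genes. An unadjusted edgeR p under 0.05 was found for 5, of which 4 were higher, beside 16.8%. Without overlap, 5 distal genes lay higher and 1 lower, and 3 proximal genes lay higher and 6 lower. The shares over all genes were 11.7% higher and 11.6% lower. Cubn, the ileal receptor for the intrinsic factor complex with vitamin B12, had a log2 fold change of 0.08 (adjusted p = 0.676 in edgeR), Ces2e, a carboxylesterase, had 0.18 (adjusted p = 0.522 in edgeR), and the median was 0.14, or 0.25 with limma-voom. Of 9 colon and rectum genes tested of 14 listed, edgeR and limma-voom called 0 and DESeq2 2, the last beside 9.03% of all genes. The median was 0.30, and 2 had an unadjusted edgeR p under 0.05, beside 16.8%. Both genes at such a p, Hoxb13 and Ly6g6c, passed the expression filter only through the pools where they were high. Ly6g6c was named after its values were seen. The counts and the median of this list are therefore a description. Car4, a membrane carbonic anhydrase, had 0.62 (adjusted p = 0.310 in edgeR) and Cyp2c55, a colonic P450 enzyme, 0.40 (adjusted p = 0.443 in edgeR).

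Genes that depend on these factors gave mixed counts. Of 14 genes named for dependence on GATA4 in the jejunum, edgeR called 2, 1 lower and 1 higher, against 2.7% of all genes, and DESeq2 called 8, against 9.03%. An unadjusted edgeR p under 0.05 was found for 10, of which 8 were lower and 2 higher, against 16.8%. Cd36, a fatty acid uptake protein, fell, with a normalized CPM of 49.7, 36.5 and 45.8 in the pools labelled Rbm47-IKO, where Rbm47 was not lower, against 108.1, 126.4 and 157.9 (log2 fold change -1.57, SE 0.18, adjusted p = 0.00950 in edgeR). Gsta1, a glutathione transferase, rose, with 12.3, 18.8 and 17.2 against 2.85, 6.64 and 4.23 (log2 fold change 1.81, SE 0.32, adjusted p = 0.0340 in edgeR); Gsta1 has near-identical family members, so its counts are uncertain. The Cd36 call was lost without pool 1 or 2 labelled Rbm47-IKO or control pool 3 (adjusted p of 0.0509, 0.0741 and 0.0504 in edgeR), and the Gsta1 call without any 1 pool labelled Rbm47-IKO or control pool 3 (adjusted p of 0.0834 to 0.183 in edgeR). In this list 8 genes lay lower and 2 higher without overlap, against the 11.6% and 11.7% of all genes given above, and the median was -0.46, while Gata4 itself was higher in every pool. These lists were written with earlier results of the data known, so their direction is not independent evidence.

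HNF4 target genes showed a median of -0.03 over the 19 tested, or -0.12 with an offset for GC content. edgeR called 0, limma-voom 1 and DESeq2 5, with 5 at an unadjusted edgeR p under 0.05, of which 4 were lower and 1 higher. The shares over all genes were 2.7% for edgeR, 9.03% for DESeq2 and 16.8% for the unadjusted p. Apob, the structural protein of chylomicrons, was the most abundant, with a normalized CPM of 10841, 10430 and 9864 against 19714, 14903 and 22119 (log2 fold change -0.87, SE 0.19, adjusted p = 0.0583 in edgeR), without overlap. Apoa1, another apolipoprotein, overlapped between groups (log2 fold change -0.10, adjusted p = 0.880 in edgeR). Of 14 CDX target genes, all tested, edgeR and limma-voom called 0 and DESeq2 1. An unadjusted edgeR p under 0.05 was found for 5, of which 4 were lower and 1 higher. In this list 4 genes lay lower and 2 higher without overlap, against 11.6% and 11.7% of all genes. The median was 0.0013, with a sign that depended on the scaling. Sis, sucrase-isomaltase, had 7598, 7160 and 7727 against 10367, 8214 and 10948 (log2 fold change -0.39, adjusted p = 0.271 in edgeR), lower in each pool labelled Rbm47-IKO while Cdx2 was higher, and Krt20, a keratin of villus cells, had a log2 fold change of 0.03 (adjusted p = 0.960 in edgeR).

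**Figure D5:**
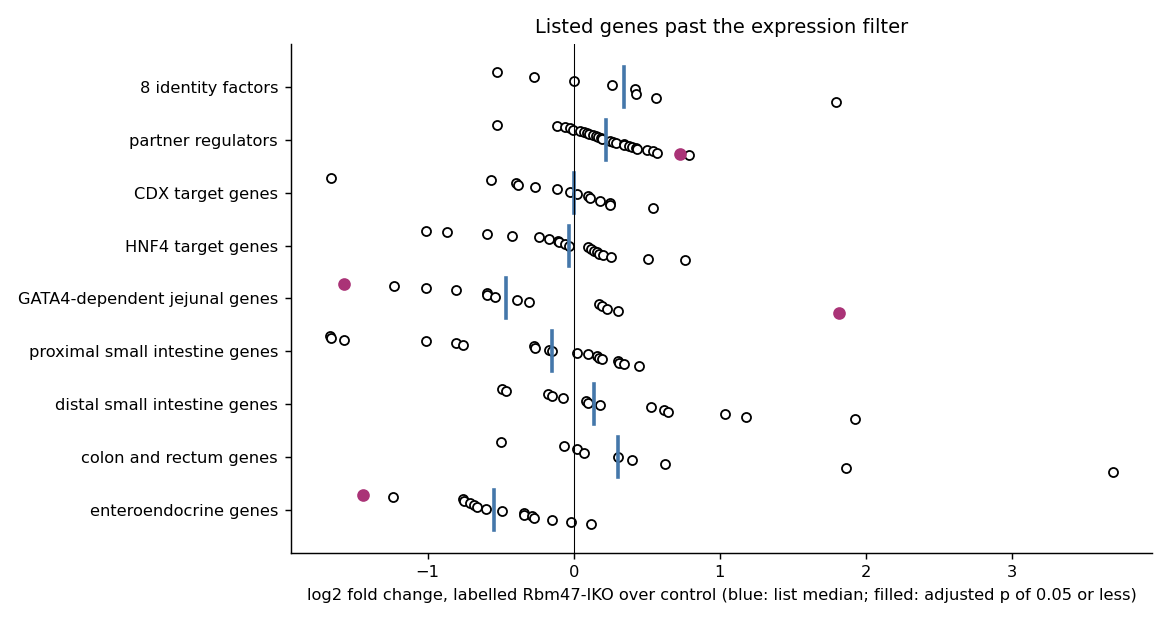
Log2 fold change (horizontal axis) of each tested gene in the 8 factors and in 8 related lists, with the median of each list as a blue bar and genes at an adjusted p of 0.05 or less in edgeR filled. The factors and the partner regulators have medians of 0.34 and 0.22, and the GATA4-dependent and enteroendocrine lists have -0.46 and -0.55.

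Of 30 regulators listed as working with these factors, 28 were tested and edgeR called 1, a share near the 2.7% of all genes. It was Maf, a leucine zipper factor of villus enterocytes. Its normalized CPM was 707.6, 759.5 and 771.3 in the pools labelled Rbm47-IKO and 444.1, 402.0 and 509.3 in control pools (log2 fold change 0.72, SE 0.13, adjusted p = 0.0323 in edgeR), while Rbm47 was not lower in the first group. The call was lost in each of the 6 fits that leave out a pool, with a log2 fold change of 0.65 to 0.82 and an adjusted p of 0.0545 to 0.196 in edgeR, and also without the 2 pools highest in smooth muscle genes (0.61, adjusted p = 0.104 in edgeR). Above 0 on the log2 scale were 23 of the 28, against 49.3% of all genes, and 8 lay higher without overlap, against 11.7%, and 0 lower, with a median of 0.22. Klf5, a Kruppel-like factor of crypt cells, had 142.0, 171.4 and 167.8 against 120.6, 116.5 and 103.6 (log2 fold change 0.50, adjusted p = 0.0739 in edgeR), and Isx, an intestinal homeobox factor regulated by CDX2, had 119.3, 121.5 and 104.4 against 95.8, 87.6 and 53.7 (log2 fold change 0.54, adjusted p = 0.243 in edgeR); Klf5 and Isx were chosen after their values were seen.

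Some enteroendocrine cells depend on PDX1. Of 16 enteroendocrine genes tested, edgeR called 1, against 2.7% of all genes. It was Ghrl, the ghrelin gene, with 1.44, 1.11 and 1.81 normalized CPM in the pools labelled Rbm47-IKO, whose Rbm47 level was not lower, against 3.62, 4.58 and 3.62 (log2 fold change -1.44, SE 0.27, adjusted p = 0.0393 in edgeR). That call was lost in each of the 6 fits that leave out a pool (log2 fold change -1.62 to -1.28, adjusted p of 0.0652 to 0.212 in edgeR) and without the 2 pools highest in smooth muscle genes (-1.51, adjusted p = 0.0563 in edgeR). The median was -0.55, with 15 of the 16 below 0, where 49.3% of all genes were above 0. Without overlap, 8 lay lower, against 11.6% of all genes. DESeq2 called 4, against 9.03%, and 9 had an unadjusted edgeR p under 0.05, all of them lower, against 16.8% in either direction. Crypt and proliferation genes had a median of -0.14 over 10 tested, or -0.072 with an offset for GC content. Of these, edgeR and limma-voom called 0 and DESeq2 1, with 2 at an unadjusted edgeR p under 0.05, beside 9.03% and 16.8% of all genes. Those 2 genes were lower and did not overlap between the groups, as did 11.6% of all genes in that direction. The cell cycle gene Mki67 had a log2 fold change of -0.20 (adjusted p = 0.793 in edgeR) and Top2a, a topoisomerase of dividing cells, -0.12 (adjusted p = 0.902 in edgeR). The part of cell composition in the values of the factors was not tested.

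The genes whose levels followed each factor most closely over the 6 pools were named by rank alone. The measure of likeness was Pearson's r of log2 CPM, given as a description over 6 pools that share preparation and depth, and 68 to 536 genes exceeded 0.9 with a factor. Cdx2 was followed by Clca1, a goblet cell secreted protein, and by Lgalsl, both with r of 0.993. Cdx1 was followed by 3110082I17Rik (0.999) and Prdx6 (0.995), and Hnf4a by Nploc4 (0.997) and Myh9 (0.996). Hnf4g was followed by Ostm1 (0.996) and Atg4c (0.994), Gata4 by Chpf2 (0.998) and Ube2q1 (0.997), and Gata6 by Ddx6 (0.995) and Rab3gap2 (0.993). Onecut2 had the fewest close followers, led by 9830144P21Rik (0.994) and Mme (0.973), and Pdx1 was followed by Nf1 (0.990) and Capn15 (0.981).

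RBM47 is known to bind U-rich and AU-rich stretches of 3′ UTRs, and the annotated 3′ UTRs of the factors differed in these. The longest was that of Onecut2, with 14356 bases, 38 AUUUA motifs and 16 runs of at least 6 U, against a median length of 1321 bases over 14131 tested genes. Per kb, Gata6 had 3.47 AUUUA motifs and Onecut2 2.65, where the median was 1.18, while Cdx2 and Hnf4g had 0. Runs of U were densest in Hnf4g, at 4.57 per kb against a median of 0.494, and Gata4 had 0. AUUUA was present in the 3′ UTR of 69.7% of genes and a run of 6 U in 56.3%. Of the 4 factors that did not overlap between the groups, Gata6, Pdx1 and Gata4 had an AUUUA motif (4, 2 and 2) and Cdx2 had none. Binding was not measured in these libraries. The GC content of the longest transcript was 41.5% for Hnf4g and 42.6% for Onecut2, the factors with a negative fold change, and 53.7% to 62.1% for the other 6, around a median of 49.8% over genes tested. With an offset for GC content the log2 fold changes were 0.29 for Gata4, 0.16 for Gata6, 0.36 for Hnf4a, -0.12 for Hnf4g, -0.41 for Onecut2 and 1.68 for Pdx1. The count of factors with an unadjusted edgeR p under 0.05 was 2, Cdx2 and Pdx1, beside 14.6% of all genes in that fit. Pdx1 passed the expression filter only through its high pools, and of the other factors Cdx2 alone had such a p.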

How the data were processed

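RNA-Seq of 6 pools was deposited as 1 table per pool with 38561 Ensembl genes. The deposited counts are reads per gene, not normalized by the authors; beside them stand the CPM of the authors, scaled by the sum of each table, and the RPKM of the authors, which divides that by length in kb. Recomputing either column gave values within 5.09e-11. The submitters' processing notes name STAR 2.5.1a, Subread, featureCounts 1.4.6-p5 and GRCm38, and strand use is not given in the sources used here. Symbols came from GENCODE M21 (36639 genes; 0.369% of counts were on genes without one), and 3′ UTRs from the same annotation; the table positions equal its positions for 4 of the 8 factors. Promoter windows are from RefSeq.

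The genotype label of a pool set its group. The 16425 genes past filterByExpr were scaled by TMM and entered the quasi-likelihood test of edgeR 4.0.16 (R 4.3.3), with Benjamini-Hochberg adjustment over all of them and a threshold of 0.05. Normalized CPM uses TMM library sizes. Log2 ratios of RPKM between 2 factors were compared by exact permutation in Python 3.11.15 with scipy 1.17.1. Depth was 31560320 to 38951830 counts per pool. Reads are not independent molecules, and the floor of 3 counts covers counting error only. Alternatives were DESeq2 1.42.0, limma-voom (limma 3.58.1), RLE, upper quartile and library size scaling, no filter, at least 1 CPM in 3 pools, a robust fit, the pool number as a block, smooth muscle genes as a covariate and each pool left out. Chosen after seeing the data were an offset from a lowess curve (span 0.3) on GC content and leaving out the 2 pools highest in smooth muscle genes. The edgeR step was tested on simulated data.

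The 8 factors and the 15 other lists were chosen with earlier results of these data known, and lists are described by counts and medians. Named were Rbm47, the factors, genes overlapping them, called genes of each list or else its 2 most abundant, and the 2 genes most like each factor by Pearson's r of log2 CPM (prior count 2); other names are said to be chosen after their values were seen, as were the single pancreas genes. A gene of the lists that is counted in their totals is not reported by name here, nor drawn among the named partner regulators.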

Additional observations from a re-analysis of the deposited data

How the results depend on the processing

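Cdx2, Hnf4a, Gata4, Gata6 and Pdx1 kept a positive and Hnf4g and Onecut2 a negative log2 fold change in every fit run. Cdx1 turned negative with upper quartile scaling (-0.033), library size alone (-0.012), at least 1 CPM in 3 pools (-0.00046, where Pdx1 was not tested) and the GC content offset (-0.17), and ran from -0.10 to 0.11 with each pool left out. Cdx2 was the 1 factor called with DESeq2 (log2 fold change 0.56), library size alone (0.55) and the smooth muscle covariate (0.61), and 0 to 0 factors were called with each pool left out. Genes called higher and lower numbered 672 and 580 with DESeq2, 378 and 325 with the muscle covariate, 154 and 116 with the GC offset, and 0 to 220 and 0 to 211 with each pool left out. The zeros came without pool 2 labelled Rbm47-IKO, where 1729 genes had an unadjusted edgeR p under 0.05. Pool numbers did not pair the samples (correlations of deviations 0.41, -0.0026 and -0.28); with the replicate block 63 genes were called higher and 37 lower, 0 of the 8 factors, 0 partner regulators and 0 enteroendocrine genes, and 3 factors had an unadjusted edgeR p under 0.05, as also with RLE scaling. Pdx1, which passed the filter only through its high pools, was among those 3 factors in both fits. The cause of these shifts was not tested. DESeq2 called 3 partner regulators, 1 CDX target, 5 HNF4 targets, 8 GATA4-dependent, 5 proximal, 4 distal, 2 colon, 4 enteroendocrine, 1 epithelial and 1 crypt gene. The muscle covariate gave 1 HNF4 target, 5 GATA4-dependent, 4 proximal, 4 distal, 1 colon, 3 enteroendocrine and 1 crypt gene. HNF4 targets numbered 1 with limma-voom; library size alone gave 1 each of CDX, HNF4, distal and epithelial genes, at least 1 CPM 1 each of HNF4, distal and epithelial genes, and upper quartile scaling and the robust fit 1 each of HNF4 and distal genes. No filter gave 2 proximal and 1 colon gene. Without the 2 muscle-rich pools 1 proximal, 2 colon and 0 enteroendocrine genes were called. With each pool left out, calls were 0 to 0 of the partner regulators, 0 to 1 of the HNF4 and colon lists, 0 to 3 of the GATA4-dependent list and 0 to 2 of the proximal, distal and enteroendocrine lists. Pdx1 rested on 4 to 36 counts per pool.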

Other observations

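Smooth muscle, fibroblast, epithelial, and liver and lung genes overlapped between the genotypes in their summed level. Smooth muscle genes (8 tested) had a median log2 fold change of 0.38 in edgeR and 0.98 in limma-voom, with Myh11, a muscle myosin, at 142.9, 226.4 and 1383 normalized CPM in the pools labelled Rbm47-IKO and 44.8, 949.8 and 138.2 in control pools, and Acta2, smooth muscle actin, at 75.0, 117.4 and 576.0 against 12.1, 550.0 and 50.7. Fibroblast genes (10 tested) had a median of 0.30, with the collagen gene Col3a1 at 75.4, 105.0 and 144.3 against 42.9, 196.8 and 73.8, and Col1a2, another collagen gene, at 24.4, 42.1 and 66.3 against 14.6, 65.3 and 22.8. The 9 epithelial genes had a median of 0.06, led by Vil1, villin, the gene whose promoter drives the Cre, with a log2 fold change of -0.17 (adjusted p = 0.622 in edgeR). Of 6 liver and lung genes 2 were tested, with a median of -0.95 in edgeR and 0.041 in limma-voom. Alb, albumin, was at 5.23 normalized CPM in control pool 1 against at most 0.490 elsewhere, and Ttr, transthyretin, overlapped between the groups (log2 fold change 0.59, adjusted p = 0.620 in edgeR). In these 4 lists edgeR and limma-voom called 0 genes and DESeq2 1, an epithelial gene, against 9.03% of all genes, and 1 epithelial gene had an unadjusted edgeR p under 0.05. Hoxb13, a homeobox gene of the hindgut and the tailbud, was at 2.60, 3.54 and 5.18 normalized CPM in the pools labelled Rbm47-IKO, where Rbm47 was not lower, and at 0, 0.553 and 0.302 in control pools; it passed the expression filter only through the pools where it was high and was chosen after its values were seen.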
